A study of Mus musculus with 8 samples.

Results

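The BTB zinc finger factors are the protein family to which Th-POK, the product of Zbtb7b, belongs. Members were chosen by symbol, as every gene whose symbol begins with Zbtb and a digit together with Bcl6, Bcl6b, Patz1, Hic1 and Hic2, a rule that uses no measured value. The gene table held 47 such symbols among its genes, and 45 of them had a probe on the array that matched by accession, out of 18749 genes with a matched probe. All 45 passed the filter on dim probes and were tested, among 14137 genes tested in all. Zbtb16 and Zbtb2 had no matched probe and were not analysed here. Zbtb8os and Zbtb11os1 carry the family's symbol pattern as genes of the opposite strand. Zbtb8os encodes an unrelated protein and Zbtb11os1 a long noncoding RNA, and both were kept because the rule names them.

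Whole No. 4 mammary glands were compared between female C57/Bl6 mice on lactation day 1, 4 of wild type (WT) and 4 lacking Th-POK (knockout, KO), with 1 array per dam. The KO line had been bred on a C57/Bl background, and the study's methods describe age-matched females without giving an age. The knockout was not limited to the epithelium, so T cells and the other cells of the KO gland carried the same allele, and the extent of the deleted segment is not given in the sources used here. The Cy3 signal of each probe on a 1-colour Agilent mouse array is the measurement. The question addressed here is at what signal the family was measured in the WT gland and which members differed where Zbtb7b was lost. The WT arrays shared 1 slide and the KO arrays a second slide, and genotype and slide therefore cannot be told apart in any comparison below.

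A BTB zinc finger factor joins an amino-terminal BTB domain (also called a POZ domain), through which the proteins pair and recruit corepressor complexes with histone deacetylases, to carboxy-terminal zinc fingers that bind DNA. Many members act as transcriptional repressors and several set lineage choices of lymphocytes: Th-POK directs thymocytes to the CD4 helper fate, Bcl6 the germinal centre B cell and follicular helper T cell fates, and Zbtb7a the choice between B and T lineages. In the mammary gland Th-POK is a factor of the luminal epithelium, the layer that makes milk.

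Promoter sequence is shown for the targeted gene and for Patz1 and Zbtb4, the only other members called under every processing alternative. Each run is the 250 bases upstream of a RefSeq transcription start on GRCm38.p6, written 5′ to 3′ on the gene's strand, with the GC box core (GGGCGG or its reverse complement CCGCCC, the site of Sp1-type zinc finger activators) in capitals. The Zbtb7b window is chr3:89393379-89393628 on the minus strand, the Patz1 windows are chr11:3288881-3289130 and chr11:3290207-3290456 on the plus strand, and the Zbtb4 window is chr11:69765662-69765911 on the plus strand.
Zbtb7b: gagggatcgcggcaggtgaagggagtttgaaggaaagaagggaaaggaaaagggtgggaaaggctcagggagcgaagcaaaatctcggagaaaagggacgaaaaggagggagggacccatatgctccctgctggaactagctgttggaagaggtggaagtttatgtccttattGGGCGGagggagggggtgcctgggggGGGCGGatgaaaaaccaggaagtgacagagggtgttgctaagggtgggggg
Patz1, start a: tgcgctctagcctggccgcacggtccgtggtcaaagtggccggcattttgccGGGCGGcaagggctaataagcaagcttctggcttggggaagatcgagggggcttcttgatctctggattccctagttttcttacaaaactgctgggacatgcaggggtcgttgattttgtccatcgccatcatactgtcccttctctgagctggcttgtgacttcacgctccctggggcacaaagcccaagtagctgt
Patz1, start b: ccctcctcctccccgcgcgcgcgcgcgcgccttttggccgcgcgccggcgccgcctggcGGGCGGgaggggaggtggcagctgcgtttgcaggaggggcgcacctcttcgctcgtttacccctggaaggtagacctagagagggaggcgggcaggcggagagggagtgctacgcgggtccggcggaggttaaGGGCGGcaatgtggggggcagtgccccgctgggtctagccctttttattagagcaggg
Zbtb4: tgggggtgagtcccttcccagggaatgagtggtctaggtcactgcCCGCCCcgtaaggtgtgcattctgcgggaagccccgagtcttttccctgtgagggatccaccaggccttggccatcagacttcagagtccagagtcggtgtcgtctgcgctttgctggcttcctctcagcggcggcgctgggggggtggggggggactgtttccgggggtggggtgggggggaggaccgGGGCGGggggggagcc
The Zbtb7b window held 2 GC boxes, the Patz1 windows 1 and 2, and the Zbtb4 window 2. A second RefSeq start of Zbtb7b, at chr3:89387672-89387921, held 1 and is not shown. Over the family, 36 of 57 windows of 41 genes (63.2%) held at least 1 GC box, against 32.7% of the 32851 windows of the same length over all genes. The median GC content was 64.4% in the family and 52.4% over all windows, and a GC-rich window holds these letters more often. A match describes the sequence and does not show that a factor binds there. Bcl6b, Zbtb10, Zbtb16, Zbtb40, Zbtb48 and Zbtb7c had no window in the table.

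The arrays were of like quality in both genotypes. The share of probes well above background was 66.9% to 75.3% per array in WT and 66.8% to 71.0% in KO glands, no spot was saturated, and the number of arrays limits the precision. Among the transcripts that define a lactating gland, Csn2 (beta-casein) had a log2 signal of 17.76 ± 0.05 in WT and 17.77 ± 0.07 in KO glands and Wap (whey acidic protein) 18.39 ± 0.06 and 18.47 ± 0.02 (SD, n = 4 each). Quantile normalization gives probes of the same rank the same value on every array. Wap, for example, was at 18.4426 on WT2, WT3 and KO2. The near equality of such bright probes therefore does not show equal amounts of RNA. In a bulk gland, fewer cells of a type and less RNA per cell cannot be told apart, so marker lists of other cell types were read beside the family. Of 8 T cell markers tested, 2 fell in KO glands (Cd3e by 0.60 and Cd4 by 0.43 on the log2 scale, limma adjusted p = 0.0369 and 0.0403) and none rose, and the mean signal of the list ranged from 6.16 to 7.39 over WT arrays and from 6.19 to 6.54 over KO arrays. Cd4 was dim, with means of 4.77 in WT and 4.34 in KO glands. The dimmest probe well above background on KO3 was at 4.17, so the size of the fall of Cd4 is uncertain. Cd28 was below the filter and Cd8b1 had no matched probe. Of 7 macrophage and neutrophil markers, Ngp alone was called, with an estimated rise of at least 7.11-fold, and none fell. Ngp encodes a neutrophil granule protein and was not well above background on any WT array. It passed the filter only through the KO arrays, so it could hardly have come out lower and its direction is no support. The list's mean ranged from 8.67 to 8.96 in WT and from 9.42 to 10.33 in KO, and without Ngp the ranges overlapped (9.49 to 10.09 and 9.89 to 10.84). In that list S100a9 differed by 2.19 without overlap and was not called (limma adjusted p = 0.0566). S100a8 differed by 0.49 with overlap (adjusted p = 0.357 in limma), and Adgre1 (-0.15) and Itgam (-0.03) were lower by the mean. The lists of luminal epithelium (Epcam and Krt18 of 8 tested) and adipocytes (Cfd and Plin1 of 7) each had 2 markers that rose, with list means of 15.78 to 15.94 in WT against 15.93 to 16.07 in KO for the former and of 13.12 to 13.86 against 13.68 to 13.93 for the latter. In the luminal list the alveolar genes Elf5 (-0.35) and Lalba (-0.45) were lower by the mean and were not called (adjusted p = 0.107 and 0.197 in limma). The lists of B cells (Cd79b of 4) and fibroblasts (Dcn of 6) each had 1 that rose, with list means of 5.74 to 6.29 against 5.84 to 6.42 and of 13.86 to 14.11 against 14.14 to 14.74. In the fibroblast list 5 of 6 markers had an unadjusted p under 0.05 by limma, all of them higher in KO glands, and the list means did not overlap. By limma no marker passed among 6 of basal epithelium or 5 of endothelium (1 of each had an unadjusted p under 0.05), and their list means overlapped between the genotypes (11.47 to 11.93 against 11.47 to 11.80, and 9.97 to 10.19 against 9.77 to 10.22). The marker calls were not examined under the alternatives described below. What part these cell types had in the differences described next was not tested.

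In the WT gland every one of the 45 members was well above background on all 4 arrays. Mean log2 signals ran from 5.62 to 11.70, with a median of 8.74. Since probes differ in how brightly they bind their target, these signals show that a transcript was detected and give no order of transcript levels between genes. The probes of Zbtb7c (11.70 ± 0.08), Zbtb4 (11.45 ± 0.18), Bcl6 (10.79 ± 0.31), Zbtb17 (10.59 ± 0.10), which encodes the Myc partner Miz1, and the tumour suppressor Hic1 (10.43 ± 0.07) were the brightest in WT. Those of Patz1 (5.62 ± 0.35), Zbtb21 (5.65 ± 0.20), Zbtb46 (5.69 ± 0.26), Zbtb8b (6.01 ± 0.26) and Zbtb32 (6.69 ± 0.58) were the dimmest (SD, n = 4 each). In KO glands 44 members were well above background on all 4 arrays, and the exception was Zbtb7b.

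Zbtb7b itself was lost. Its log2 signal was 9.90, 10.42, 10.13 and 10.23 on the WT arrays and 1.55, 1.56, 1.65 and 1.60 on the KO arrays, where it was not well above background on any. The genotypes were far apart and all 8 arrays fitted their labels. The fall was estimated as at least 81.5-fold. This was computed from the WT mean of 10.17 and, for each KO array, the signal of the dimmest probe that still stood well above background there, with a mean of 3.82. A probe can lie above that signal without being well above background, so the bound is not strict. For the measured difference of -8.58, limma gave an adjusted p of 5.71e-09. A single probe represented the gene.

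The closest relatives of Th-POK are the other members of the POK group, Zbtb7a and Zbtb7c. Zbtb7a (LRF), which also silences fetal globin genes, had a log2 signal of 9.18, 9.28, 9.25 and 9.08 in WT and 9.48, 9.48, 9.54 and 9.56 in KO glands. Every KO array lay above every WT array, and the rise was small, 0.32 ± 0.09 (SE; limma adjusted p = 0.0461). Blocking on the replicate number gave an adjusted p of 0.0757, and leaving out any 1 of the 8 arrays also took it above 0.05. Zbtb7c had a mean of 11.70 ± 0.08 in WT and 11.69 ± 0.09 in KO glands (SD, n = 4). Its difference of -0.01 had a 95% interval of -0.23 to 0.21 on the log2 scale, which overlaps the interval of Zbtb7a, 0.11 to 0.52. The difference between these members was not tested.

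**Figure D1:**
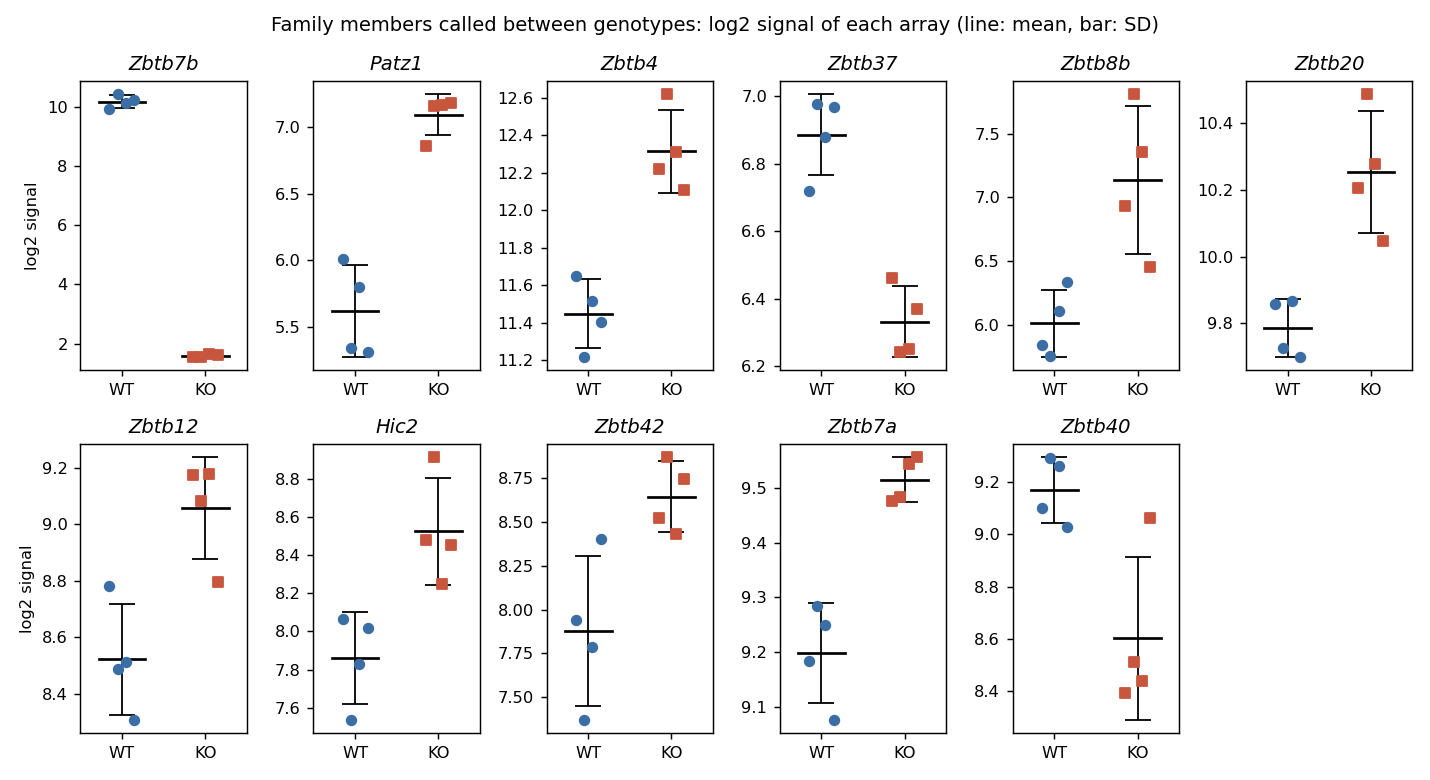
Log2 signal (vertical axis, a separate scale per gene) of each family member with an adjusted p under 0.05, for the 4 WT arrays (circles) and the 4 KO arrays (squares), with the mean as a line and the SD as a bar. Zbtb7b dropped to a mean of 1.59 on the KO arrays, Patz1 went from a mean of 5.62 to 7.10, and of the members drawn Zbtb40 alone had a KO array among the WT arrays.

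Of the 44 members other than Zbtb7b, 10 (22.7%) were called at an adjusted p under 0.05, where 16.5% of all genes tested were. The members rose more often than they fell: 8 were higher in KO glands (18.2%, against 7.53% of all genes) and 2 lower (4.55%, against 8.96% of all genes). Most of the differences were small. Patz1 and Zbtb8b passed at a difference of at least 2-fold, as did 4.37% of all genes, and 32 of the 44 members differed by less than 0.5 on the log2 scale. The signals of the genotypes did not overlap for 13 members (29.5%, against 24.1% of all genes). By the mean alone 31 members were higher and 13 lower in KO glands, and the median difference was 0.16, against -0.02 over all genes, where 47.6% were higher. The median absolute difference was 0.245 in the family and 0.273 over all genes. The family thus differed from all genes more in direction than in the size of the differences, by the means and by the calls made without the block. With the replicate number as a block, 6 of the 44 members were called and 5 were higher, against 2762 called and 1237 higher of 14137 genes. The members' share called was then below that of all genes, so the excess in calls of either direction did not hold with the block. Their share called higher was still above that of all genes. Leaving out 1 array gave 2 to 8 called members. No test was made over the family as a list. The plot of all genes tested shows where the members lie.

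**Figure D2:**
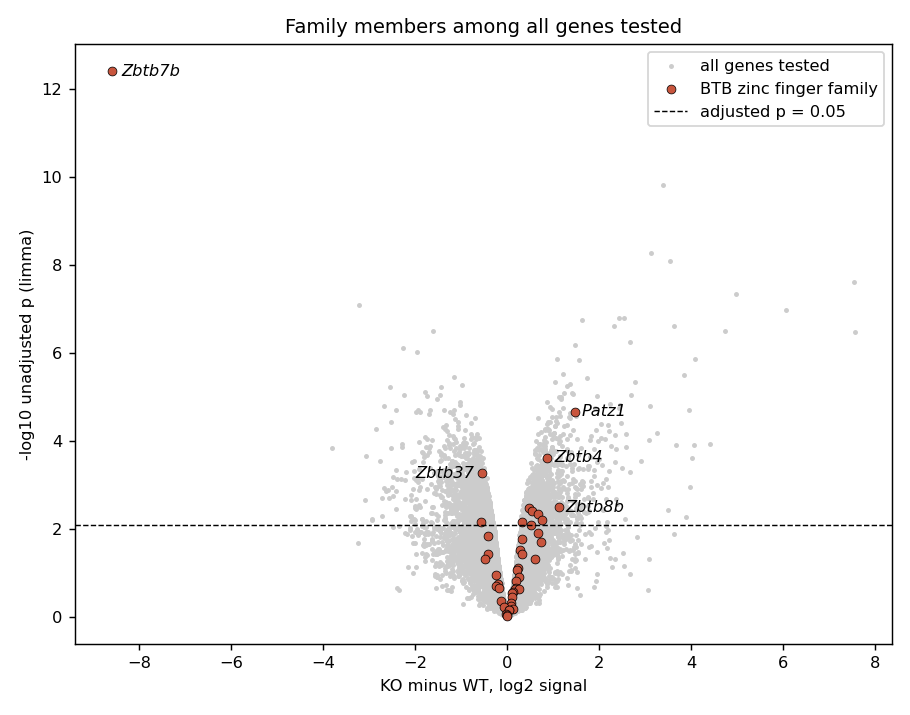
Each point is a gene, with its KO minus WT difference in log2 signal on the horizontal axis and minus log10 of limma's unadjusted p on the vertical axis. All genes tested are grey and the 45 family members red, and the dashed line marks an adjusted p of 0.05. Zbtb7b lies alone at -8.58, a measured value below background in KO, while the other members stay between -0.57 and 1.48.

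Patz1 and Zbtb4 stood out, because they alone were called under each of the 15 alternative ways of processing the data. Patz1 (MAZR), a repressor of Zbtb7b in thymocytes on the CD8 path, had a log2 signal of 6.01, 5.34, 5.80 and 5.31 in WT and 6.86, 7.16, 7.17 and 7.19 in KO glands. The lowest KO array lay 0.85 above the WT array of the same number, and Patz1 rose by 1.48 ± 0.18 on the log2 scale (SE; limma adjusted p = 0.00462), the largest difference in the family after Zbtb7b. Across the alternatives its rise ran from 0.87 to 1.62. Its signal in WT glands was among the dimmest of the family, and the smallest rise came with another background correction. A single probe represented Patz1, so no alternative could show whether the rise depends on the probe.

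Zbtb4 binds DNA at methylated CpG. Its log2 signal was 11.65, 11.22, 11.52 and 11.40 in WT and 12.22, 12.62, 12.31 and 12.11 in KO glands. The genotypes did not overlap, and Zbtb4 rose by 0.87 ± 0.14 (SE; limma adjusted p = 0.0122; 0.77 to 0.94 over the alternatives). A second probe of the gene differed by 0.88, with an SD of 0.15 over the WT and 0.12 over the KO arrays (n = 4 each). The other members that bind methylated CpG were not called. Zbtb33 (Kaiso) differed by 0.32 without overlap (limma adjusted p = 0.0740) and Zbtb38 by -0.24, with a 95% interval of -0.55 to 0.07.

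Of the remaining members that rose, Zbtb8b, a little studied member, had the widest spread. Its log2 signal was 5.84, 5.75, 6.11 and 6.34 in WT and 6.93, 7.81, 7.36 and 6.45 in KO glands. The lowest KO array lay just above the highest WT array, and the rise was 1.13 ± 0.28 (SE; limma adjusted p = 0.0319, and 0.0511 when replicates were blocked). Zbtb20, a repressor of alpha-fetoprotein in the liver that also acts in plasma cells, was at 9.86, 9.73, 9.87 and 9.70 in WT and 10.21, 10.49, 10.28 and 10.05 in KO glands. It rose by 0.47 ± 0.12 with no overlap (adjusted p = 0.0324). Zbtb12 was at 8.78, 8.49, 8.51 and 8.31 in WT and 9.18, 9.08, 9.18 and 8.80 in KO glands. It rose by 0.54 ± 0.14 with the lowest KO array only just above the highest WT array (adjusted p = 0.0349).

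Hic2, the paralogue of the tumour suppressor Hic1, was at 8.07, 7.54, 7.83 and 8.02 in WT and 8.48, 8.92, 8.25 and 8.46 in KO glands. It rose by 0.66 ± 0.17 without overlap (SE; limma adjusted p = 0.0374, or 0.0631 with the block), and its second probe differed by 0.81. Hic1 itself had a mean of 10.43 in both genotypes, and the 95% interval of its difference was -0.23 to 0.23. Zbtb42 is a paralogue of Zbtb18, a repressor in developing neurons. It was at 7.94, 7.37, 7.79 and 8.40 in WT and 8.52, 8.87, 8.43 and 8.74 in KO glands, a rise of 0.76 ± 0.21 with the highest WT array just below the lowest KO array (adjusted p = 0.0433, or 0.0507 with the block). Zbtb18 differed by -0.02, with a 95% interval of -0.34 to 0.29. In both of these paralogous pairs 1 member was called and the other was not, and the difference between the members of a pair was not tested.

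The 2 members that fell were Zbtb37 and Zbtb40, whose roles are little described. Zbtb37 was at 6.72, 6.98, 6.88 and 6.97 in WT and 6.46, 6.24, 6.25 and 6.37 in KO glands. It fell by 0.55 with an SE of 0.10 on the log2 scale and no overlap (limma adjusted p = 0.0164). A second, dimmer probe of Zbtb37 went the other way, from 5.46 ± 0.40 to 5.80 ± 0.20 (SD, n = 4), and the mean of both probes gave -0.11 (adjusted p = 0.526), so the fall holds for 1 probe and not for the gene as a whole. Zbtb40 was at 9.10, 9.29, 9.26 and 9.03 in WT and 8.39, 8.51, 8.44 and 9.06 in KO glands. KO replicate 4 lay among the WT arrays while the other 3 were lower. The fall was 0.57 with an SE of 0.16 (adjusted p = 0.0463, or 0.0673 with the block), and without KO replicate 4 the adjusted p was 0.0145.

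**Figure D3:**
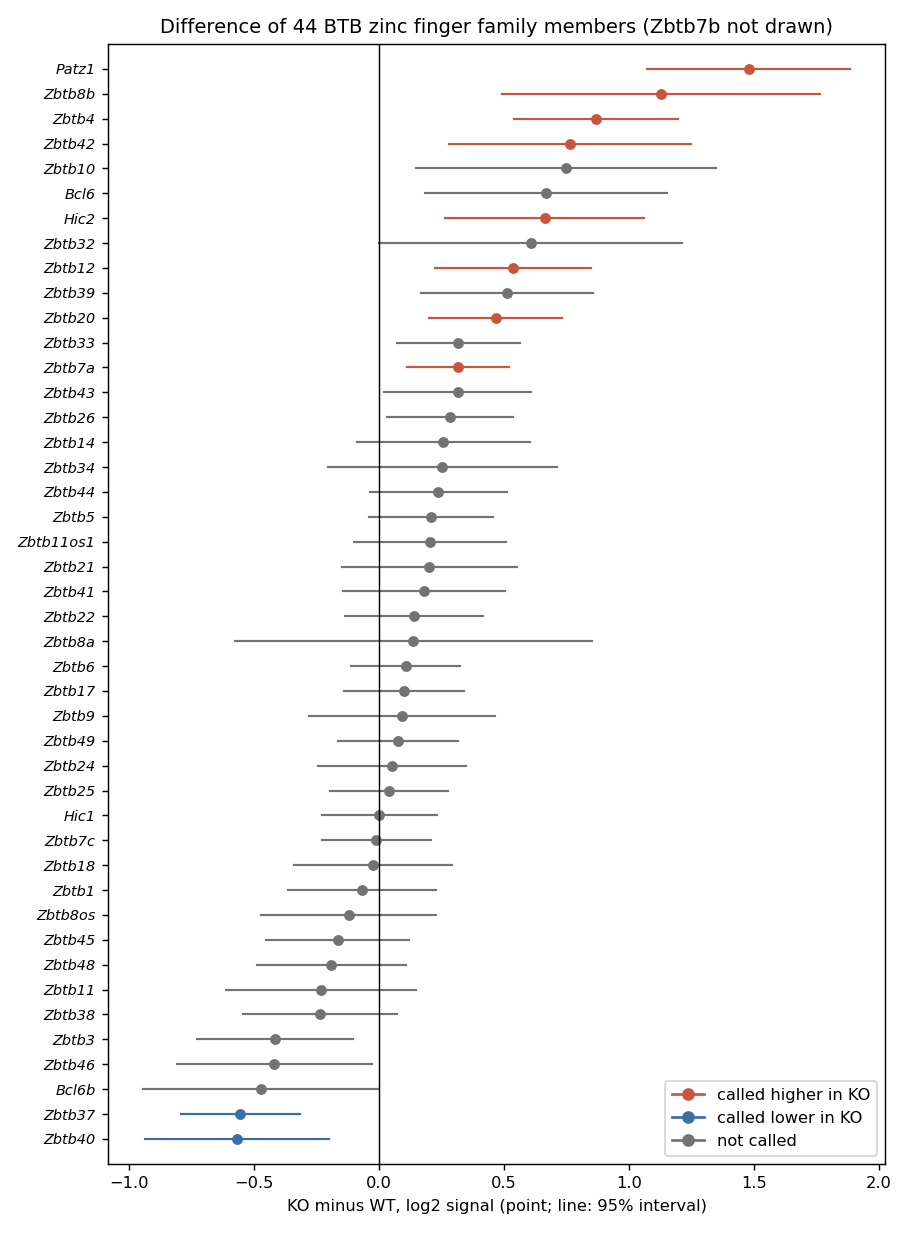
KO minus WT difference in log2 signal (horizontal axis) of the 44 members other than Zbtb7b, with the 95% interval of limma as a line, red for members called higher, blue for members called lower and grey for members not called. Patz1 has the largest difference (1.48), Zbtb40 the lowest (-0.57), and most intervals of the uncalled members cross 0.

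Several members lay just beyond the threshold. Bcl6 was at 10.57, 11.23, 10.80 and 10.56 in WT and 11.09, 11.89, 11.58 and 11.27 in KO glands. The genotypes overlapped, by WT replicate 2, but in each of the 4 pairs of the same replicate number the KO array was higher, by 0.52 to 0.78. The difference of 0.67 had an adjusted p of 0.0612 in limma, and of 0.0169 with the replicate number as a block. Zbtb39 differed by 0.51 (adjusted p = 0.0503), and Zbtb10, a repressor of Sp1-dependent promoters, by 0.75 (adjusted p = 0.0805), with its other probes at 0.70 and 1.01. With the mean over the probes in place of the brightest, Zbtb10 passed (0.82, adjusted p = 0.0492).

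The members whose genotypes did not overlap and that were not called were Zbtb3, Zbtb26, Zbtb32 and Zbtb33. Zbtb3 was between 7.06 and 7.45 in WT and between 6.63 and 7.05 in KO glands, a difference of -0.42 (limma adjusted p = 0.0664). Zbtb33 was between 9.07 and 9.31 in WT and between 9.35 and 9.68 in KO glands. Zbtb26 differed by 0.28 (adjusted p = 0.104). Zbtb32 (ROG), a repressor in activated lymphocytes, was at 7.10, 5.88, 6.69 and 7.10 in WT and 7.18, 7.17, 7.29 and 7.56 in KO glands, and its difference was 0.61 (adjusted p = 0.137). WT replicate 2 was its lowest array by far.

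Among the members with a part in lymphocytes, 12 were measured. Patz1, Zbtb20 and Zbtb7a rose, as given above, the last of them not with the block, Zbtb7b fell, and the other 8 were not called. Over all genes 16.5% were called and 7.53% were called higher. Bcl6b, the paralogue of Bcl6, differed by -0.47 (limma adjusted p = 0.136) and Zbtb46, a factor of classical dendritic cells, by -0.42 (adjusted p = 0.118), and in both the genotypes overlapped. Zbtb1, which lymphoid development requires, differed by -0.07, Zbtb17 by 0.10, Zbtb24, mutated in an immunodeficiency with centromeric instability, by 0.05 and Zbtb25 by 0.04, all with 95% intervals that held 0 and stayed within 2-fold. The T cell markers Cd3e and Cd4, the latter close to background, fell in the same glands, while the mean signal of the T cell list overlapped between the genotypes. What part T cell content had in the values of these members was not tested.

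The rest of the family showed smaller differences. Of the 34 members not called, 31 had a 95% interval that stayed within 2-fold in both directions, so differences larger than that lay outside the interval for most of them. The typical spread was small: the median SD over 4 arrays was 0.19 in WT and 0.17 in KO glands, and the median SE of a difference was 0.14. Zbtb8a, with KO arrays from 8.01 to 9.41, was the least precisely measured, and its difference of 0.14 had an interval of -0.58 to 0.85. The opposite-strand genes Zbtb8os and Zbtb11os1 differed by -0.12 and 0.20 and were not called.

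Some members are neighbours in the genome. Zbtb25 and Zbtb1, Zbtb34 and Zbtb43, Zbtb6 and Zbtb26, and Zbtb11 and Zbtb11os1 are each adjacent in the gene table, and none of these members was called. Zbtb8b, which was called, has 2 genes between it and Zbtb8a, which was not, and Zbtb8a adjoins Zbtb8os.

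Where a member had more than 1 probe above background, the probes were compared. This was so for 16 members with 19 further probes. The further probe had the sign of the brightest in 16 of the 19, and the 3 others belonged to Zbtb37, Zbtb1 (-0.07 and 0.17) and Zbtb6 (0.11 and -0.04). Among the called members with a further probe, the differences were near each other for Zbtb4 (0.87 and 0.88), Zbtb7a (0.32 and 0.37) and Hic2 (0.66 and 0.81). The called members Patz1, Zbtb8b, Zbtb20, Zbtb12, Zbtb42 and Zbtb40 had a single probe above background each, so this check does not cover them. Zbtb11 was lower on all of its probes (-0.23, -0.42 and -0.46) and was not called by its brightest. Probes of 1 gene share the RNA of the same 8 glands, so they check the probe and add no replicates.

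**Figure D4:**
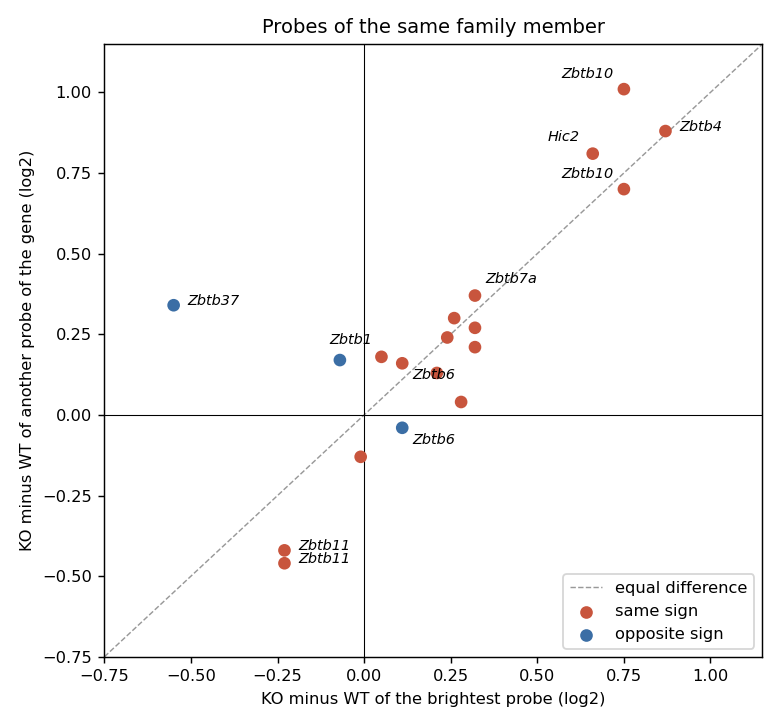
KO minus WT difference (log2) of the brightest probe of a family member (horizontal axis) against that of each further probe of the same gene (vertical axis), with the line of equal difference dashed. Of 19 points, 16 have the same sign on both axes (red), and Zbtb37, Zbtb1 and 1 probe of Zbtb6 do not (blue).

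The genes through which BTB zinc finger factors act formed a list of 24 corepressors, deacetylases and partners, of which 23 were tested and Hdac1 had no matched probe. In KO glands 4 rose and none fell, and the median difference was 0.09, against -0.02 over all genes. Ctbp2, a corepressor that Hic1 recruits, went from 11.79 ± 0.35 to 12.55 ± 0.12 and rose by 0.76 (SD, n = 4; limma adjusted p = 0.0258). Hdac5, a class II histone deacetylase, rose by 0.70 (adjusted p = 0.0277), and the NCoR complex subunits Tbl1xr1 and Tbl1x by 0.82 and 0.46 (adjusted p = 0.0341 and 0.0477, the latter 0.0760 with the block). Ncor1, a scaffold of that complex, was not called and differed by -0.04, with a 95% interval of -0.24 to 0.16. Cul3, the ubiquitin ligase scaffold that binds many BTB domains, differed by -0.18 (adjusted p = 0.274). The genotypes overlapped for Tbl1xr1 and Tbl1x and not for Ctbp2 and Hdac5. The share called, 4 of 23, was near the 16.5% of all genes called in either direction. All 4 were higher, where 7.53% of all genes were called higher. Leaving out any 1 of KO replicates 1, 2 or 3 left no gene of the list past the threshold. Of 3 BTB zinc finger genes with symbols outside the rule, Mynn (0.02), Zfp131 (0.10) and Gzf1 (-0.50, adjusted p = 0.0629), none was called by limma, and Gzf1 alone had an unadjusted p under 0.05.

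**Figure D5:**
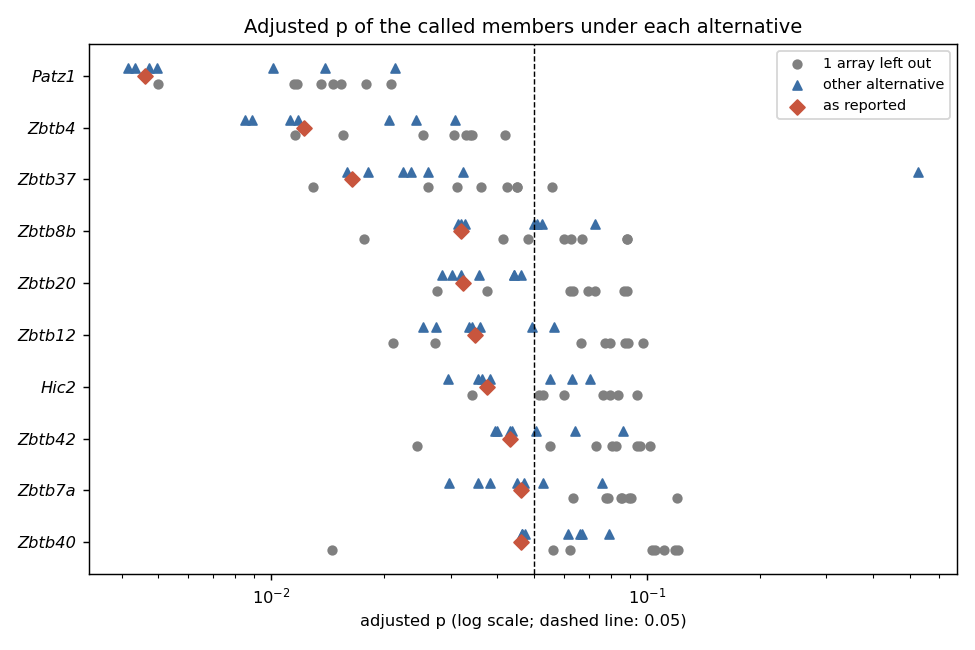
Adjusted p (horizontal axis, log scale) of each called member other than Zbtb7b as reported (diamonds), under 7 other ways of processing (triangles) and with 1 array left out (grey circles). The dashed line is 0.05. For Patz1 and Zbtb4 all points lie left of the line, and every other member drawn has points on both sides.

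How far the called members depend on single arrays differed between them, as the plot of adjusted p under each alternative shows. Patz1 and Zbtb4 were called under 15 of 15 alternatives and Zbtb37 under 13. The other members were called under fewer: Zbtb20 under 9, Zbtb12 under 8, Zbtb8b under 7, Hic2, Zbtb42 and Zbtb7a under 5, and Zbtb40 under 4. Their differences kept their sign throughout, and the smallest and largest values of Zbtb20 (0.39 and 0.54), Zbtb12 (0.46 and 0.62) and Hic2 (0.53 and 0.76) were close.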

How the data were processed

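RNA of 8 No. 4 mammary glands (4 WT and 4 KO dams, grouped by the sample labels) was measured on 1-colour Agilent arrays. The deposited scanner output holds intensities that Agilent Feature Extraction 10.7 had background-subtracted and detrended within each array, per the file headers and labels. A second deposited file, of log2 values that the authors had quantile-normalized in GeneSpring, served as an alternative. No columns of other series were present (0).

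After control spots were removed, log2 processed intensities were quantile-normalized between arrays with limma 3.58.1 in R 4.3.3. Outlier spots (64 to 100 per array) were left out and spots averaged per probe (41174 probes). Symbols came from probe accessions through RefSeq's table of GRCm38.p6 (27479 probes matched, 18749 genes). The array design names another mouse build, so coordinates are given for promoter windows only. Probes entered if all 4 arrays of either genotype had them well above background, the brightest per gene was kept, and genotypes were compared over 14137 genes with Benjamini-Hochberg adjustment. A gene was called at an adjusted p under 0.05. Differences are KO minus WT. The procedure was tested on simulated data.

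The members and gene lists were chosen with earlier results of these data known. Named genes are the Zbtb7 group, the called and the non-overlapping members, the 5 brightest and 5 dimmest in WT, the 5 largest differences each way, members with lymphoid or methyl-CpG roles, and called corepressors. Called markers of other cell types are named from lists. Zbtb39, Csn2, Wap, Elf5, Lalba, S100a8, S100a9, Adgre1, Itgam, Ncor1, Cul3, Ep300, Mynn, Gzf1, Zfp131 and the members given with a called paralogue, neighbour or further probe lie outside that rule and were added after their values were seen.

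Replicates are separate dams. The labels give both genotypes the numbers 1 to 4, and deviations from the genotype means correlated between same-numbered arrays at r = 0.219, 0.165, 0.304 and 0.283. The mean for other numbers was -0.079. Taking deviations from the genotype means largely fixes that value as negative once same-numbered arrays correlate, so it adds no evidence of pairing. As every pair exceeded 0.1, the numbers were taken to pair the samples. Blocked values are given where they change a call of a family member or of the corepressor list. For the markers of other cell types no blocked values are given, so their calls are those without the block. Alternatives were the block, 75th percentile scaling, normexp background correction, the deposited table, no filter, the mean over probes, the methods' t-test and leaving out each array. Normexp used the median spot signal, a choice made after the data were seen because the planned mean signal could not be read from the files used here. One gene of the corepressor list is not reported here by name.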

Additional observations from a re-analysis of the deposited data

Results flagged for a closer look

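In 3 members 1 array stood apart from the other 3 of its genotype by more than Dixon's criterion for 4 values allows, which chance does in about 1 in 20 groups, and 2 genotypes of 45 members were examined. Patz1 had 6.86 on KO replicate 1, against 7.16 to 7.19 on the other KO arrays. It was still above every WT array, and Patz1 was called without KO replicate 1 as well. Zbtb34 had 6.27 on WT replicate 3, against 6.82 to 6.89 on the other WT arrays. Zbtb46 had 6.08 on WT replicate 2, against 5.52 to 5.58 on the others. Neither Zbtb34 nor Zbtb46 was called.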

How the results depend on the processing

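Of the 10 members called beside Zbtb7b, Patz1 and Zbtb4 were called under all 15 alternatives. With the replicate number as a block, which takes the pairing into account, 6 members were called, because Hic2, Zbtb40, Zbtb42, Zbtb7a and Zbtb8b passed the threshold no longer and Bcl6 passed it. The block gave 2762 genes in all against 2331. It called 4 corepressors, of which 3 were called without it, with Ep300 (adjusted p = 0.0392) in place of Tbl1x. Without the filter on dim probes 6 members and 2 corepressors were called among more genes tested, and by the methods' t-test 5 members, 1 corepressor and 1389 genes in all after Benjamini-Hochberg adjustment (17 members and 4765 genes at the threshold of 0.05 without adjustment). The methods' t-test lost Hic2, Zbtb12, Zbtb40, Zbtb42 and Zbtb8b. Leaving out 1 array gave 2 to 8 members, 0 to 5 corepressors and 518 to 3079 genes in all. The fewest came without KO replicate 3 (2, 0 and 518), and 3 members were called without WT replicate 2, WT replicate 3, KO replicate 1 or KO replicate 2. The cause was not tested. Other scaling, background and probe choices and the deposited table gave 8 to 11 members. Zbtb7b was called lower under every alternative. Since it was not well above background on any KO array, its measured differences are no bound, and those under the alternatives are not given. Under 75th percentile scaling the genes called split into 1002 higher and 1436 lower, against 1065 and 1266. Signs turned only for 9 members whose difference was at most 0.14 in size. Hic1 was at -0.0137 with 75th percentile scaling and -0.0059 with normexp, Zbtb7c at 0.0116 in the deposited table and Zbtb1 at 0.0512 with the mean over probes. With 1 array left out, the values ran from -0.0539 to 0.0554 for Hic1, -0.1451 to 0.0078 for Zbtb1, -0.1345 to 0.0543 for Zbtb18, -0.0166 to 0.1288 for Zbtb24, -0.0135 to 0.0853 for Zbtb25, -0.0455 to 0.0282 for Zbtb7c, -0.1422 to 0.3263 for Zbtb8a, -0.2136 to 0.0024 for Zbtb8os and -0.0087 to 0.1977 for Zbtb9. Slide as a block was not run, since each genotype lies on a slide of its own. Depth limits the dimmest members most: the mean of Patz1 was 5.62 in WT glands, where the dimmest probes well above background lay between 2.93 and 4.03.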
